A study of Mus musculus with 18 samples.

Results

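The genes described here are the 7 mouse Hox genes of paralogue groups 9 and 10: Hoxa9, Hoxb9, Hoxc9, Hoxd9, Hoxa10, Hoxc10 and Hoxd10. They were chosen by name from the 53465 genes of the deposited table, and all 7 were found. Expression had been measured by RNA sequencing of poly(A) RNA in 9 mouse embryos at embryonic day 9, each cut into an anterior and a posterior piece. The posterior piece held the axial bud and the 10 to 12 youngest somites, and the anterior piece held the rest of the somite-bearing axis. Of the embryos, 5 were labelled control and 4 were double mutants (DKO) in which Meis1 and Meis2 were conditionally deleted with Delta1Cre, a Cre recombinase named after the gene Delta1. This gave 4 groups of libraries, with 5 control and 4 DKO libraries for each piece. The controls had 23, 20, 24, 21 and 23 somites (embryos 1 to 5) and the DKO embryos had 22, 24, 20 and 23 (embryos 1 to 4). Which alleles the controls carried, and the strain, are not given in the sources used here.

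Hox genes code for homeodomain transcription factors that give body levels their identity along the head-to-tail axis. The genes lie in 4 clusters (A, B, C and D) and are switched on in their order along the cluster, so that groups 9 and 10 come on late and in the hind part of the trunk. In the skeleton, group 9 genes are known for shaping the thoracic and lumbar vertebrae, and group 10 genes for suppressing ribs in the lumbar region. Members of both groups also act in the limb buds and in spinal motor neurons. Meis proteins belong to the TALE family and bind DNA together with Hox proteins, which is why a Meis mutant is of interest for these genes.

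The members of a group arose from one ancestral gene, so reads of one could be confused with those of another. In the GENCODE M21 transcripts (build GRCm38), no member shared an exact 61-base stretch, the length of a read, with another member. Some shared such stretches with other genes: 5.84% of the stretches of Hoxc10 lie also in Hoxc5, 2.56% of those of Hoxd10 in the transcript Gm28309, 0.888% of those of Hoxc9 in repeats found in many genes, and 0.449% of those of Hoxa9 in Mir196b. For Hoxb9, Hoxd9 and Hoxa10 the share was 0.

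All 7 members are protein-coding genes. In GRCm38, Hoxa9 (ENSMUSG00000038227) lies at chr6:52223100-52231089 and Hoxa10 (ENSMUSG00000000938) at chr6:52231197-52240854, both on the minus strand. Hoxb9 (ENSMUSG00000020875) lies at chr11:96271457-96276595 on the plus strand. Hoxc10 (ENSMUSG00000022484) at chr15:102966796-102971893 and Hoxc9 (ENSMUSG00000036139) at chr15:102976439-102985099 are on the plus strand, as are Hoxd10 (ENSMUSG00000050368) at chr2:74691924-74695105 and Hoxd9 (ENSMUSG00000043342) at chr2:74697727-74700208. The annotated span of Hoxc5 covers Hoxc9 whole and most of Hoxc10, and that of Gm28309 covers part of Hoxd10, all on the strand of the member. Whether counting used the read strand is not given in the sources used here.

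Libraries held 12.7 to 38.2 M (megacounts) of expected counts, and 3 counts, taken as the detection floor, corresponded to 0.0790 to 0.233 CPM (counts per megacount of a library, after TMM scaling between libraries). Floors and counting intervals cover counting error only. The Meis1 level, which checks the labels, was 113 to 135 CPM in anterior control, 89.7 to 111 in anterior DKO, 59.6 to 99.8 in posterior control and 46.7 to 71.9 in posterior DKO libraries. Meis2 was at 177 to 203, 130.4 to 157, 117 to 162 and 91.1 to 116 CPM in the same order. Counts per gene do not show which exons are read, so they do not measure the deletion itself. Delta1 is known to be active in the presomitic mesoderm, and cells in which the Cre was never active keep Meis1 and Meis2. Both libraries of 1 embryo, control embryo 1, went against its sex label by their Y-linked genes, and leaving that embryo out changed no call for a member. The anterior library of control embryo 3, which had the lowest depth, was the highest anterior library for 5 of the 7 members. Results for the members that rest on it are therefore given with and without it.

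Hoxb9 was the one member with high levels in both pieces. Hoxb9, known for its part in rib and thoracic patterning, was at 132, 149, 147, 120.4 and 139 CPM in the anterior control libraries of embryos 1 to 5 and at 329, 297, 258, 299 and 313 CPM in the posterior ones. In the DKO it was at 169, 176, 108 and 126 CPM in the anterior and 296, 278, 282 and 312 CPM in the posterior libraries. The anterior and posterior ranges did not overlap in either genotype, and the anterior level of an embryo was 40.1 to 57.0% of its posterior level in controls and 38.2 to 63.3% in the DKO. The posterior level was higher by 1.12 on the log2 scale in controls (SE 0.07, edgeR quasi-likelihood adjusted p = 4.7e-07) and by 1.01 in the DKO (SE 0.14, edgeR adjusted p = 0.00072).

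Hoxc10, known from lumbar motor neurons and the hindlimb, lay at the other end, with almost no reads in the anterior piece. Its anterior counts were 0, 4, 1, 1 and 0 in controls 1 to 5 and 0, 0, 3 and 2 in the DKO embryos 1 to 4. Its posterior levels were 123, 153, 120.3, 145 and 126 CPM in controls and 161, 135, 195 and 149 CPM in the DKO. All but 1 of the 9 anterior libraries were at or below the floor of 3 counts, and the posterior libraries held 1933 to 4656 counts. Pooled over embryos, 6 anterior against 16795 posterior counts gave a ratio of 1985 in controls (exact 95% counting interval 912 to 5411), and 5 against 14695 counts gave 3169.5 in the DKO (1358 to 9763). In the DKO, where every anterior library was at or below the floor, the mean posterior level was at least 1239-fold higher than the floor of 3 counts per library. Without control embryo 2, which held 4 of the 6 anterior counts, the ratio was 4094 (2 counts, 1133 to 33806), and without DKO embryo 3 it was 6161 (2 counts, 1705 to 50881).

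Hoxa9 and Hoxc9 were low but measurable in the anterior piece. Hoxa9, which also serves blood progenitors, was at 2.32, 3.21, 17.8, 1.67 and 2.20 CPM in anterior and 98.8, 148, 114, 98.5 and 109 CPM in posterior control libraries. In the DKO its levels were 3.54, 4.32, 1.44 and 1.62 CPM anterior and 131, 107, 152 and 128 CPM posterior. Anterior control 3 was the high library, and no anterior library reached a posterior level. Hoxc9, known for setting the thoracic identity of motor neurons, was at 0.347, 1.60, 3.04, 0.557 and 0.778 CPM in anterior controls and 0.488 to 2.09 CPM in anterior DKO libraries. Its posterior levels were 42.5 to 50.3 CPM in controls and 47.1, 49.4, 43.2 and 67.0 CPM in the DKO, with DKO embryo 4 the highest. Posterior was higher than anterior by 4.50 (SE 0.51) for Hoxa9 and 5.23 (SE 0.33) for Hoxc9 on the log2 scale in controls, and by 5.55 (SE 0.28) and 5.25 (SE 0.35) in the DKO. The edgeR adjusted p of these 4 differences was at most 3.5e-05.

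Hoxd9, Hoxa10 and Hoxd10 were low in the anterior libraries, with 0 to 19 counts outside control 3 and 55 to 207 in it. Hoxd9, a gene of the trunk and the early limb bud, was at 0.453, 0.619, 16.1, 0.287 and 0.259 CPM in anterior controls and 0.114, 0.154, 0.0577 and 0.414 CPM in anterior DKO libraries. Its posterior levels were 32.2, 47.4, 40.2, 47.5 and 56.6 CPM in controls and 47.7, 43.3, 60.8 and 68.0 CPM in the DKO. The third control again gave the high anterior value. Hoxa10, which later patterns the uterus, was at 0.226, 0.116, 4.27, 0.230 and 0.129 CPM in anterior controls and 0.143, 0.154, 1.10 and 0.276 CPM in anterior DKO libraries. Its posterior levels were 69.0, 74.4, 74.3, 74.9 and 71.5 CPM in controls and 91.7, 79.7, 97.3 and 79.9 CPM in the DKO. Hoxa10 had the smallest spread among posterior controls of all 7 genes, a coefficient of variation of 3.48%. Hoxd10, which acts in lumbar motor neurons and limbs, had 0, 5, 73.6, 0 and 0 counts in anterior controls and 1, 0, 7 and 0 in anterior DKO libraries. Its posterior levels were 38.6, 38.7, 45.1, 42.1 and 42.3 CPM in controls and 49.2, 44.7, 44.7 and 46.5 CPM in the DKO. The posterior levels of all 3 genes lay above every anterior level.

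**Figure D1:**
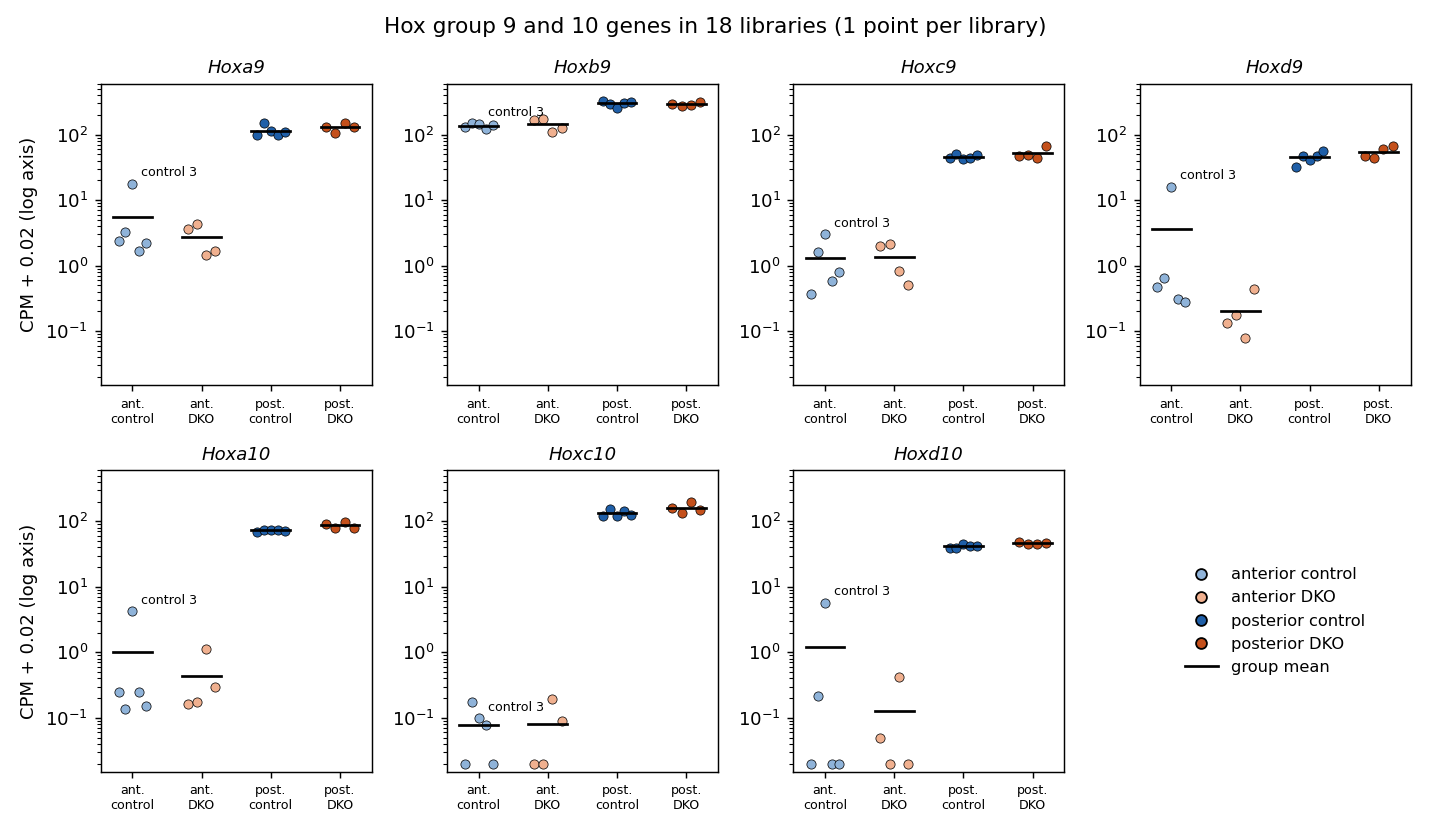
Level of each member in the 18 libraries, as CPM plus 0.02 on a log axis, with 1 point per library and a line at the group mean. Hoxb9 lies above 100 CPM in all libraries, Hoxc10 is at or near 0 counts in the anterior libraries, and anterior control 3 is the highest anterior library for Hoxa9, Hoxc9, Hoxd9, Hoxa10 and Hoxd10.

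All 7 members were higher in the posterior than in the anterior piece in both genotypes by edgeR at an adjusted p below 0.05. Hoxd9, Hoxa10, Hoxc10 and Hoxd10 fell below the count filter within the anterior piece, so they entered the region tests through their posterior counts. For them the direction of the difference, and the lack of overlap given below, were largely set by the filter. The medians below include them. In controls 25.4% of the 15294 genes tested passed that test (12.1% higher in the posterior piece), and in the DKO 18.5% of 15777 did (8.76% higher). The ranges of the 2 pieces did not overlap for any member, a pattern found with the posterior piece higher in 9.42% of genes in controls and 10.9% in the DKO. The median log2 difference of the members was 5.23 in controls and 7.93 in the DKO, against -0.01 and 0.01 over all genes tested. Without control embryo 3 the control median was 6.73. In bulk tissue, fewer cells that express a gene and less RNA per cell cannot be told apart. DESeq2 also called 7 of 7 in the DKO (21.5% of all genes). In controls it called all 3 members to which it gave a p (27.2% of all genes) and gave none to Hoxa9, Hoxd9, Hoxa10 and Hoxd10 because of an outlying count.

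For those 4 genes the size of the control difference depended on control embryo 3. The log2 difference between posterior and anterior controls was 3.85 (SE 0.83) for Hoxd9 with all embryos and 6.73 without embryo 3. It was 5.43 (SE 0.77) and 9.17 for Hoxd10, 6.51 (SE 0.54) and 8.69 for Hoxa10, and 4.50 and 5.56 for Hoxa9. All stayed past the threshold (edgeR adjusted p at most 0.0042 with and 1.6e-07 without the embryo). Hoxc9 moved from 5.23 to 5.73, Hoxb9 from 1.12 to 1.20 and Hoxc10 from 10.84 to 10.92. With any 1 control embryo left out, Hoxc10 ranged from 10.57 to 11.74. In the DKO the differences were 8.08 (SE 0.32) for Hoxd9, 7.93 (SE 0.32) for Hoxa10 and 9.08 (SE 0.45) for Hoxd10. Without DKO embryo 3 Hoxd9 was at 7.83 and Hoxa10 at 8.74, and Hoxd10 had no anterior library above the floor. Without DKO embryo 4 Hoxd9 was at 8.76. As pooled counts, the posterior level of Hoxd10 was 46.2 times the anterior one in all controls (79 anterior counts, exact 95% counting interval 37.0 to 58.5) and 613 times without embryo 3 (5 counts, 262 to 1889). In the DKO it was 584 times (8 counts, 296 to 1354). Of these 8 counts 7 were from DKO embryo 3, and without it the ratio was 3902 (1 count, 700 to 154161).

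**Figure D2:**
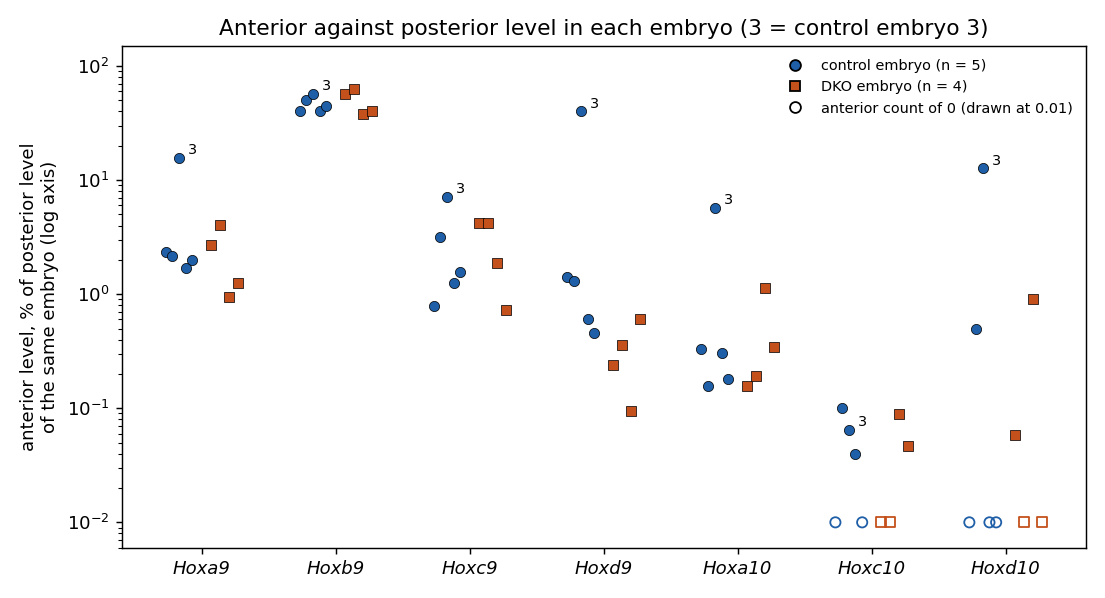
Anterior level as a percentage of the posterior level of the same embryo, on a log axis, for 5 control and 4 DKO embryos, with open symbols for an anterior count of 0. Hoxb9 lies between 38.2 and 63.3%, Hoxc10 at or below 0.101%, and control embryo 3 reaches 40.0% for Hoxd9 and 12.7% for Hoxd10.

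In anterior control 3, several limb and lateral plate genes were high together with the members. Hoxd9 there was 39.8 times, Hoxa10 24.4 times and Hoxa9 7.57 times the mean of the other 4 anterior controls, while Hoxb9 was 1.09 times that mean and Hoxc10 had 1 count. Tbx5, which starts the forelimb bud, was at 12.2 CPM against 0.808 to 2.71 in the other 8 anterior libraries. Hand2, a posterior limb bud and lateral plate factor, was at 9.68 CPM against 0.230 to 2.53, and Hoxd8, the neighbour of Hoxd9 in the cluster, at 14.8 against 1.29 to 2.67. All 5 genes of the limb field list (Tbx5, Tbx4, Pitx1, Fgf10, Lmx1b) were above their highest level in the other 8 libraries. Their summed level was 51.1 CPM, against 12.3 to 18.5 in the other anterior controls and 15.1 to 17.3 in the anterior DKO. Of these, Tbx4 was near the floor of that library (0.233 CPM), at 0.311 CPM against 0 to 0.155. Pitx1 was only slightly above, at 1.86 CPM against 0 to 1.59. Fgf10, the growth factor of limb outgrowth, was at 9.75 CPM against 1.51 to 3.95. The lateral plate list (6 of 6 genes in the table) summed to 145 CPM, against 71.1 to 80.0 and 41.5 to 62.9 CPM. Prrx1, a factor of limb and lateral plate mesenchyme, gave 91.5 CPM of that sum, and the other 5 genes gave 53.9 CPM against 10.4 to 41.8 in the other 8 libraries. Prrx1, Hand2, Bmp4 and Gata6 were above all of those libraries, while Foxf1 (6.53 CPM against 1.51 to 13.5) and Hand1 (8.39 against 0 to 8.71) were not. Of the 6 intermediate mesoderm genes, 5 were also above the other 8 anterior libraries. So were 3 of 6 endothelium genes (Pecam1, Cdh5 and Tek), with a list sum of 275 CPM against 206 to 263, and 2 of 6 heart genes (Myh6 and Nppa), with a sum of 17.2 CPM inside the range of 11.8 to 23.5. Of the 6 surface ectoderm genes 2 were above as well (Trp63 and Grhl3), and of the somite, neural tube, gut endoderm and erythroid lists 0 were.

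Of the 9 genes of the axial bud list, which mark the posterior piece, 2 were above their highest level in the other 8 anterior libraries. These were Cyp26a1, which breaks down retinoic acid, at 5.28 CPM against 1.73 to 4.21, and Fgf8, a growth factor of the bud, at 3.65 against 2.09 to 3.21. T, which marks the bud and the notochord, was at 2.95 CPM, below the 3.60 to 5.60 CPM of the other anterior libraries. Cdx2, an activator of trunk Hox genes, was at 0.155 CPM (others 0.0566 to 1.55), and Cdx4 and Msgn1 were at 0 counts. The list (9 of 9 genes in the table) summed to 26.9 CPM, of which Wnt3a gave 10.7, against 27.0 to 38.7 CPM in the other 8 libraries and 356 to 704 CPM in the posterior ones. Among Hox genes of groups 11 to 13, Hoxa11 was at 4.66 CPM against 0.0508 to 1.64 in the other anterior libraries, Hoxd13 at 0.855 against 0 to 0.0647 and Hoxd11 at 0.344 against 0 to 0.199. Hoxc11, Hoxd12 and Hoxa13 were at 0 counts. Tbx4, which starts the hindlimb bud, was at 0.311 CPM against 6.09 to 30.2 CPM in posterior libraries. The part that the cut between the pieces played in these values was not tested.

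**Figure D3:**
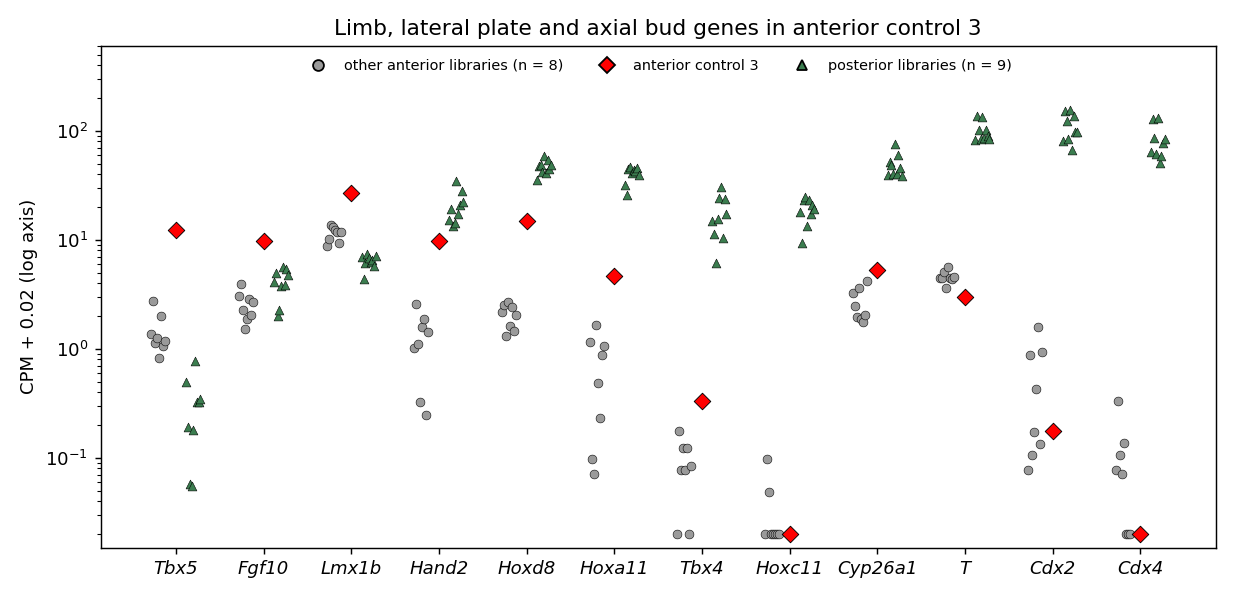
Level of 12 limb, lateral plate, Hox and axial bud genes, as CPM plus 0.02 on a log axis, in anterior control 3 (diamond), the other 8 anterior libraries (circles) and 9 posterior libraries (triangles). Tbx5, Fgf10, Lmx1b, Hand2, Hoxd8, Hoxa11, Tbx4 and Cyp26a1 stand above the other anterior libraries in anterior control 3, while Hoxc11, T, Cdx2 and Cdx4 do not. The Tbx4 level there lies near the floor.

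Levels of different genes were compared per kilobase of annotated exon, as CPM per kb. In posterior controls Hoxb9 was highest at 116 ± 10.4 (SD, n = 5) and Hoxc10 next at 69.9 CPM per kb. Neither range overlapped the range of the gene after it. The other 5 followed at 22.8 (Hoxd10), 22.3 (Hoxa10), 21.0 (Hoxd9), 20.4 (Hoxa9) and 18.9 (Hoxc9) CPM per kb, and each of these overlapped its neighbour in the order. In the posterior DKO the values were 113 for Hoxb9 and 83.8 for Hoxc10, and 21.3 to 26.6 CPM per kb for the other 5, again with overlap. With the length of the longest transcript, Hoxa9 came out at 35.2 and Hoxa10 at 28.4 CPM per kb in posterior controls, above and apart from the other 3. In the anterior piece Hoxb9 was at 53.4 CPM per kb in controls and 56.2 in the DKO, and each of the other 6 had a mean of at most 1.66 in controls (Hoxd9) and 0.551 in the DKO (Hoxc9). Without control 3 the highest mean of these 6 in anterior controls was 0.421 CPM per kb (Hoxa9).

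The members made up a larger part of all Hox RNA in the posterior piece. Of the summed CPM of the 39 Hox genes, they held 16.5% ± 1.93 (SD, n = 5) in anterior controls (15.8% ± 1.43, n = 4, without control 3) and 39.6% ± 1.03 (n = 5) in posterior controls. In the DKO they held 16.7% ± 1.96 (n = 4) and 39.7% ± 0.723 (n = 4). Without Hoxb9 the other 6 held 0.335 to 4.63% in anterior controls, with the highest value in control 3, and 22.4 to 25.2% in posterior controls.

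DKO and control embryos were compared in each piece separately, the question being which genes respond to Meis. No member passed the test in the posterior piece. Of the 7, 0 were called by edgeR (0.0126% of the 15936 genes tested were) and 0 by DESeq2 (1.08% of genes), and 3 had an unadjusted p below 0.05 (11.01% of genes). The log2 differences of DKO against control were 0.19 (SE 0.13) for Hoxa9, -0.04 (SE 0.08) for Hoxb9, 0.17 (SE 0.12) for Hoxc9 and 0.30 (SE 0.17) for Hoxd9. In group 10 they were 0.26 (SE 0.07) for Hoxa10, 0.26 (SE 0.11) for Hoxc10 and 0.16 (SE 0.07) for Hoxd10. Thus 6 of 7 were above 0, as were 52.4% of all genes, and the median of the members was 0.19 against 0.01 over all genes.

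Hoxa10 was the member whose posterior values were separate between the genotypes. Its 4 DKO libraries were at 79.7 to 97.3 CPM and its 5 control libraries at 69.0 to 74.9 CPM (87.1 ± 8.80 and 72.8 ± 2.53, mean ± SD). Such a separation, with the DKO higher, was found in 2.15% of genes. The edgeR adjusted p was 0.28, and it ranged from 0.083 to 0.74 over the alternative analyses. The marker lists of intermediate mesoderm and surface ectoderm were also separate between these groups. The posterior sums of all other marker lists overlapped. The intermediate mesoderm list (6 of 6 genes in the table) summed to 74.6 to 91.9 CPM in posterior controls and 35.9 to 58.9 in the DKO, and the surface ectoderm list (6 of 6) to 167 to 226 and 235 to 297 CPM. In the surface ectoderm list Krt8 and Krt18, keratins of simple epithelia, summed to 109 to 172 CPM in controls and 175 to 243 CPM in the DKO. The other 4 genes (Trp63, Tfap2a, Grhl3 and Wnt6) overlapped, at 53.1 to 62.1 and 54.0 to 69.3 CPM. No gene of either list was at 0 in a whole group. The part of these cells in the Hoxa10 values was not tested.

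Only Hoxa9, Hoxb9 and Hoxc9 had enough anterior reads to be tested there, and the other 4 fell below the count filter. Of these 3, 0 were called by edgeR (0.0394% of 15238 genes) or by DESeq2 (1.94%), and 0 had an unadjusted p below 0.05 (13.01%). The log2 differences were -0.95 (SE 0.70) for Hoxa9, 0.08 (SE 0.13) for Hoxb9 and 0.12 (SE 0.60) for Hoxc9. Without control embryo 3 the Hoxa9 value was 0.21. With no count filter, the other 4 were at -4.07 (Hoxd9), -3.58 (Hoxd10), -1.23 (Hoxa10) and -0.17 (Hoxc10). The lowest edgeR adjusted p of these was 0.24, for Hoxd9. They rest on few anterior reads outside control 3.

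**Figure D4:**
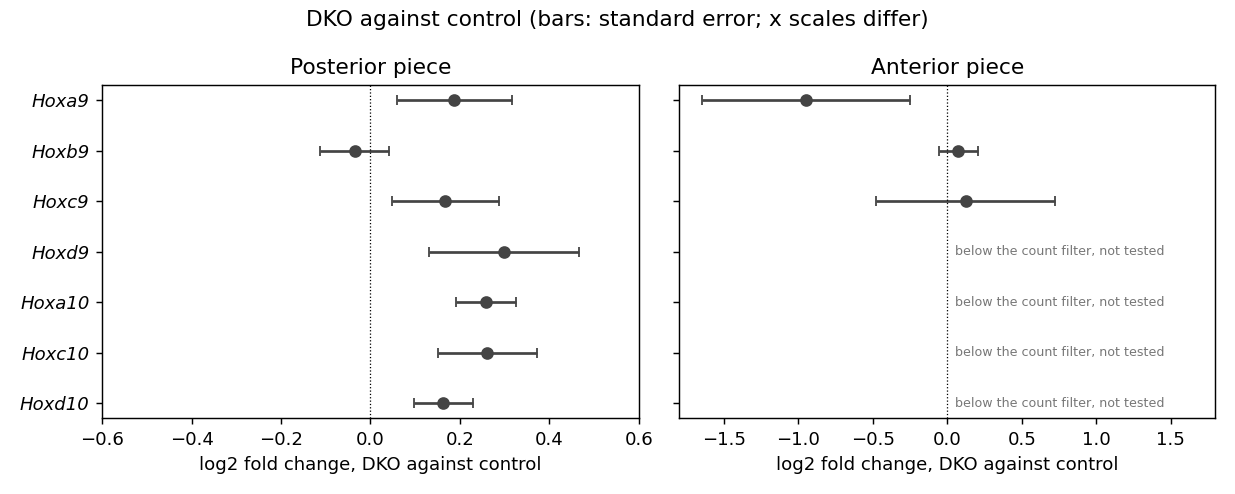
Log2 fold change of DKO against control with its standard error for each member, in the posterior piece (left) and the anterior piece (right, wider scale). In the posterior piece 6 of 7 values lie above 0 and none passed the test, and in the anterior piece 4 genes were not tested.

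Whether the effect of the deletion differed between the pieces was tested with the interaction of region and genotype. Of the 7 members, 0 were called by edgeR (0% of 16428 genes), and 2 had an unadjusted p below 0.05 (3.451%). The 2 were Hoxd9, at 4.24 on the log2 scale (SE 1.39, edgeR adjusted p = 1.0), and Hoxd10, at 3.66 (SE 1.56, edgeR adjusted p = 1.0). DESeq2 called 0 of the 5 members to which it gave a p (0.0609% of genes) and gave none to Hoxa10 and Hoxd10. Without control embryo 3 the values were 1.35 for Hoxd9, -0.10 for Hoxd10 and -0.77 for Hoxa10 (1.42 with it).

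Within the posterior piece, embryos of different somite number were compared at a given genotype, since these genes are switched on in sequence as the axis grows. In each genotype Hoxc10 was highest in the embryo with 20 somites, at 153 CPM (control 2) and 195 CPM (DKO 3), and lowest in the embryo with 24, at 120.3 CPM (control 3) and 135 CPM (DKO 2). Its slope was -0.11 log2 per somite (SE 0.02). The edgeR adjusted p was 0.13, so the slope was not called, while DESeq2 gave an adjusted p of 2.4e-06. Over all alternatives the adjusted p ranged from 2.4e-06 to 0.86, and without DKO embryo 4 edgeR gave 0.044. By edgeR 0 of 7 members were called (0.0126% of genes), by DESeq2 1 (0.872%), and 2 had an unadjusted p below 0.05 (6.419%), Hoxc10 and Hoxa9. The slope was -0.09 for Hoxa9 (SE 0.03), -0.06 for Hoxd9, -0.04 for Hoxa10, -0.01 for Hoxb9, 0.02 for Hoxc9 and 0.02 for Hoxd10.

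Of the 9 axial bud genes, 0 passed the slope test by edgeR and 4 by DESeq2 (T, Nkx1-2, Cdx2 and Cdx4), and 8 had an unadjusted p below 0.05. All 9 slopes were below 0, from -0.28 to -0.09 log2 per somite. The summed level of these genes was 662 and 704 CPM in the posterior pieces with 20 somites and 356 to 521 CPM in the other 7. Cdx4, like Cdx2 an activator of Hox genes in the bud, had a slope of -0.28 log2 per somite, Cdx2 of -0.21 and T of -0.16 (edgeR adjusted p 0.12, 0.19 and 0.16). Of the 8 testable genes of Hox groups 11 to 13, 0 passed by edgeR and 1 by DESeq2 (Hoxd12), and 5 had an unadjusted p below 0.05. In this list 7 of 8 slopes were above 0, from 0.06 for Hoxa11 to 0.69 for Hoxc12, and Hoxa13 was at -0.01. The part of the bud in the Hoxc10 slope was not tested.

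**Figure D5:**
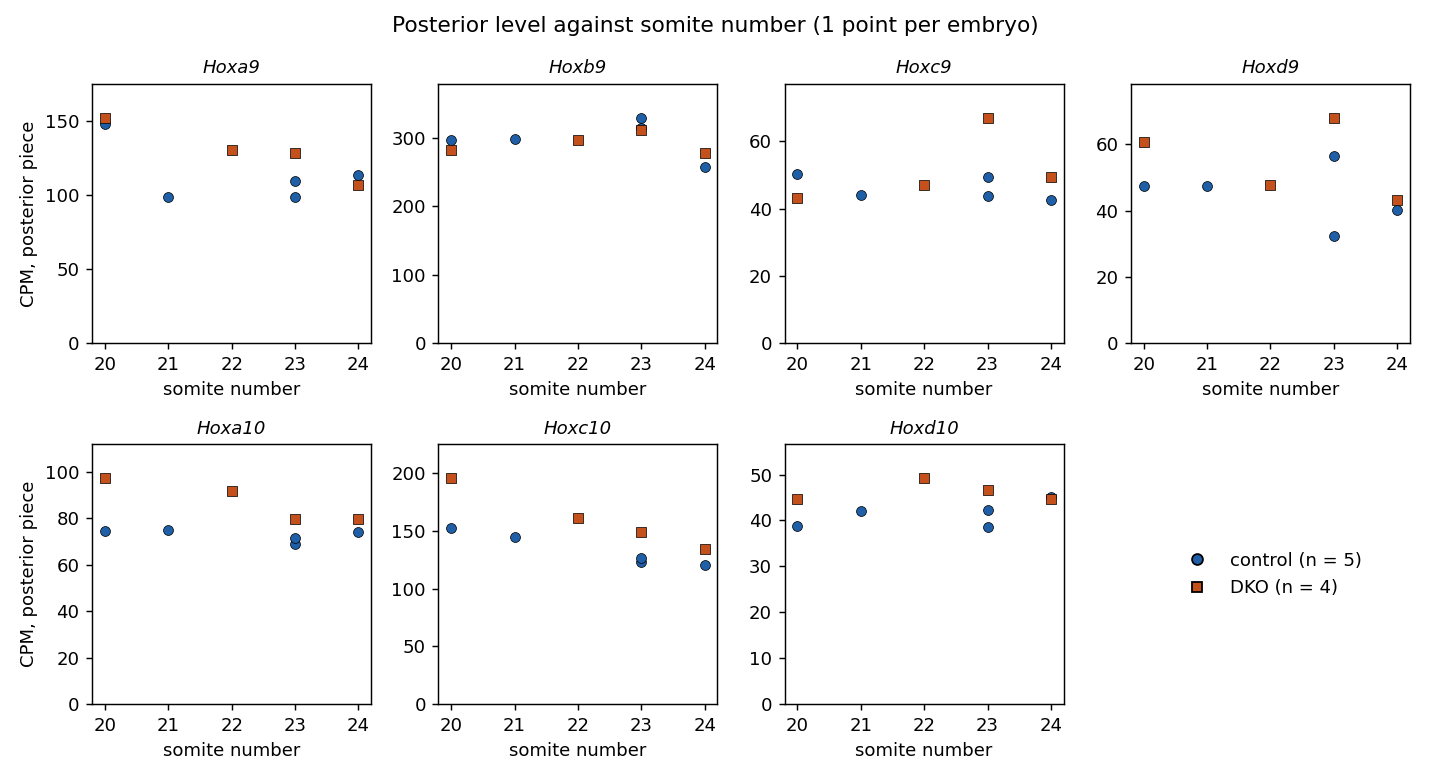
Posterior level of each member in CPM against the somite number of the embryo, with 1 point per embryo for 5 controls and 4 DKO embryos. Hoxc10 goes from 153 and 195 CPM at 20 somites to 120.3 and 135 CPM at 24, while Hoxb9 shows no such course.

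Members were set beside the genes outside groups 9 and 10 whose levels were most like theirs over the 18 libraries, by Pearson correlation of log2 CPM over 11810 protein-coding genes. These correlations describe libraries that share embryos and fall into 2 regions, and carry no test. By Spearman correlation 4 of the 21 genes named here were among the nearest 3 of their member (0 for Hoxb9 and for all 3 genes of group 10), and without anterior control 3 it was 10 of 21 by Pearson correlation. Nearest to Hoxc10 were Msgn1 (r = 0.996), Cdx4 (0.993) and Tbx6 (0.993), genes of the axial bud and the presomitic mesoderm. Without anterior control 3 the nearest to Hoxc10 were Msgn1 (0.996), Ets2 (0.996) and T (0.995). Nearest to Hoxa9 were Hoxc6 (0.991), Hoxa7 (0.989) and the FGF target Etv4 (0.988), and to Hoxb9 Hoxc8 (0.981), Hoxc6 (0.976) and Hoxa7 (0.969). For Hoxc9 they were Hoxa7 (0.985), Hoxc6 (0.983) and Hoxc8 (0.980). Of these genes, Hoxd8, of the same cluster, came first for both Hoxd9 (0.990) and Hoxd10 (0.980). It was followed by Unc5b (0.971) and Etv4 (0.970) for Hoxd9 and by Ets2 (0.976) and Evpl (0.975) for Hoxd10. Without anterior control 3 Hoxd8 was still first for Hoxd9 (0.993), and the nearest 3 for Hoxd10 were Hoxd11 (0.993), Cdx4 (0.992) and Msgn1 (0.991). For Hoxa10 the nearest over all 18 libraries were Ets2 (0.985), Unc5b (0.983) and Hoxd11 (0.983). Without anterior control 3 the nearest to Hoxa10 were Epha1 (0.993), T (0.991) and Hoxd11 (0.991). Among the members, which this order leaves out, Hoxa10 and Hoxd10 were the most alike pair over all 18 libraries (0.989). That was above the genes named for either over the same libraries. For Hoxb9 the member most alike was Hoxc9 (0.974), ahead of Hoxa7 in the order for Hoxb9. For Hoxd9 it was Hoxa9 (0.974), ahead of Unc5b in the order for Hoxd9.

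Among the 9 posterior libraries alone, with the mean of each genotype removed, the members did not all vary together. The correlation was 0.81 for Hoxa10 with Hoxc10 and 0.71 for Hoxa9 with Hoxc10, and -0.62 for Hoxc9 with Hoxa10.

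Lists of related genes gave the surroundings of these results. In controls, all 6 testable genes of Hox groups 11 to 13 rose towards the posterior piece, as did 9 of 11 genes of groups 5 to 8 (2 fell) and 3 of 12 of groups 1 to 4 (4 fell). The 3 largest differences in groups 11 to 13 were those of Hoxd12, Hoxa13 and Hoxc11, whose anterior libraries were all at or below 3 counts. In groups 5 to 8 Hoxd8 rose by 3.33, Hoxc8 by 2.80 and Hoxa6 by 2.40 on the log2 scale, and Hoxb5 fell by 1.05 and Hoxc5 by 0.76. In groups 1 to 4 Hoxd1 rose by 2.05, Hoxb1 by 1.68 and Hoxc4 by 0.50, and Hoxa4 fell by 1.19, Hoxd3 by 1.10 and Hoxb4 by 0.96. Of 15 regulators of posterior Hox genes 10 rose, led by Cdx4 (9.57), Cdx2 (7.75) and T (4.51), and Lin28b alone fell, by 0.20. Of 9 TALE cofactors 6 fell, led by Pbx3 (-0.92), Meis1 (-0.57) and Meis2 (-0.41), and Pknox2 rose by 0.24. Of 10 limb and muscle genes linked to groups 9 and 10, 5 rose, led by Tbx4 (7.51), Pitx1 (5.93) and Hand2 (2.85), and Tbx5 (-3.13), Myf5 (-0.87) and Pax3 (-0.25) fell. In anterior control 3 Hoxd8, Hand2 and Tbx5 were at 14.8, 9.68 and 12.2 CPM. The other anterior libraries held at most 2.67, 2.53 and 2.71 CPM. The sizes of these control differences therefore rest in part on anterior control 3, and no fit without it is given.

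In the DKO the same lists gave 7 of 7 testable genes higher in groups 11 to 13, and 7 of 11 higher and 1 lower in groups 5 to 8. In groups 1 to 4 they gave 4 of 12 higher and 4 lower, among the regulators 10 of 15 higher and 1 lower, among the cofactors 1 of 9 higher and 5 lower, and among the linked genes 4 of 10 higher and 3 lower. The leading genes were Hoxd13, Hoxd12 and Hoxc11 in groups 11 to 13, and Hoxd8 (4.70), Hoxc8 (3.01) and Hoxc6 (2.67) in groups 5 to 8, where Hoxb5 (-0.94) fell. In groups 1 to 4 Hoxd1 (2.29), Hoxb1 (1.92) and Hoxc4 (0.66) rose most and Hoxd3 (-0.84), Hoxa4 (-0.75) and Hoxa2 (-0.75) fell most. Among regulators Cdx4, Cdx2 (7.75) and Pou5f1 (6.23) led and Lin28b (-0.26) fell. Pknox2 (0.23) rose and Pbx3 (-1.0), Meis1 (-0.82) and Meis2 (-0.52) led the cofactors that fell. Pitx1 (8.56), Tbx4 (7.37) and Hand2 (4.07) rose and Tbx5 (-3.35), Myf5 (-1.37) and Pax3 (-0.34) fell among the linked genes. Pou5f1 and Tbx4 were at or below the floor of 3 counts in every anterior DKO library, so their values carry no exact size. No gene of these lists was called by edgeR in a DKO comparison or in the interaction, and 0 to 4 genes of a list had an unadjusted p below 0.05. The genes called by DESeq2 included Meis1 and Meis2 in both pieces and Myf5 and Shh in the anterior piece, and it called none in the interaction. The median log2 difference of DKO against control in the posterior piece was 0.18 for groups 1 to 4 (11 of 12 above 0), 0.12 for groups 5 to 8 (8 of 11) and 0.10 for groups 11 to 13 (6 of 8).

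The bases before the start of the members were searched for 4 short motifs because the members moved together between the pieces. RefSeq promoters (GRCm38.p6, 250 bases before the start) were matched for 4 of the 7 genes: Hoxa9, Hoxd9, Hoxd10 and Hoxa10, the last with 2 starts, giving 5 windows. The motifs, read on both strands, were TGACAG (Meis), TGATNNAT (Pbx-Hox), TTTATG (Cdx) and AGGTCA (a retinoic acid receptor half-site), and no match of one overlapped a match of another. The only match was AGGTCA, in 1 of 5 windows, against 14.02% of all 32851 promoters. The shares of all promoters for the other motifs, with 0 of 5 here, were 15.86% for TGACAG, 7.683% for TGATNNAT and 10.76% for TTTATG. The match begins 69 bases before the RefSeq start of Hoxd10, on the other strand, and is in capitals in the window chr2:74691641-74691890 (plus strand, 5′ to 3′).
Hoxd10: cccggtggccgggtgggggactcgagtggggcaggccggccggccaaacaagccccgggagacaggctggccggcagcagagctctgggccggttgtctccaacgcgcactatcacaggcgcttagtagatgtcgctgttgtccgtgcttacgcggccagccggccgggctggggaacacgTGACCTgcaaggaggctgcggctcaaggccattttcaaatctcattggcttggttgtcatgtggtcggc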

How the data were processed

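The authors deposited 1 table of RSEM expected counts (estimated reads per Ensembl gene, not scaled between libraries). CASAVA, cutadapt, RSEM and the build GRCm38 come from the submitters' processing notes, with no versions. Counting parameters and use of the strand are not given in the sources used here. Per the labels' protocols, NEBNext libraries were read from a single end at 61 bp. Of 53465 gene identifiers 53360 were found in GENCODE M21.

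Rounded expected counts entered edgeR 4.0.16 (R 4.3.3): filterByExpr (minimum count 10, minimum total 15), TMM scaling (trimmed mean of M values), glmQLFit and glmQLFTest, and Benjamini-Hochberg adjustment over all genes tested, with a threshold of 0.05. Each comparison used its own groups, the interaction used all 18 libraries, and the slope model held genotype and somite number. Log2 CPM used a prior count of 2. DESeq2 1.42.0 was an alternative. Intervals for ratios of pooled counts are exact binomial (Clopper-Pearson, 95%). Alternatives were RLE and upper-quartile scaling, DESeq2, no count filter, unrounded counts, all libraries in 1 fit, somite number as covariate, the embryo as block, leaving out each embryo, the longest transcript, Spearman correlation and, chosen after the data were seen, Hoxd10 summed with Gm28309, pooled ratios without each embryo, and likeness, levels per kb and Hox shares without anterior control 3.

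Anterior and posterior libraries were assigned to embryos by their shared genotype, somite number and sex label. With group means removed, libraries of one embryo correlated at 0.436 to 0.768 over 12560 genes (9 pairs) and those of different embryos at -0.421 to 0.127 (32 pairs), so the embryos pair the pieces. Litters are not given, so p-values measure the spread between embryos as sampled. The main region and interaction fits held no term for the embryo. Their p-values are thus unpaired and treat both pieces of an embryo as independent, and the embryo as block was run as an alternative.

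All 7 members were named throughout. The other genes named were the 3 protein-coding genes most like each member, fellow members left out, and the 3 highest and 3 lowest called genes of each list in the region comparisons, and markers and flagged libraries were described beside the results they touch. The members and lists were chosen with earlier results of these data known. The tests were run on simulated data with the library sizes of these samples. Of genes changed by 0.5 on the log2 scale, 35% were recovered for DKO against control in the posterior piece (15936 genes), and of those changed by 1, 70%. For the interaction (16428 genes) the shares were 24% and 66%. These shares are not specific to the members, and recovery at the levels of the members was not tested. In the interaction fit the SE on the log2 scale was 0.96 for Hoxa10, 1.01 for Hoxc10, 1.39 for Hoxd9 and 1.56 for Hoxd10. For Hoxa9, Hoxc9 and Hoxb9 it was 0.67, 0.58 and 0.16.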

Additional observations from a re-analysis of the deposited data

Results flagged for a closer look

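Of 28 sets of values (7 members in 4 groups), 6 held 1 library far from the others of its group. All of these came from anterior control 3 or anterior DKO 3, and several values lie near the floor. The rate of about 1 such set in 20, which holds for independent and normally spread values, therefore does not apply. Anterior control 3 was far above the other 4 anterior controls for Hoxa9 (17.8 CPM against 1.67 to 3.21), Hoxd9 (16.1 against 0.259 to 0.619), Hoxa10 (4.27 against 0.116 to 0.230) and Hoxd10 (5.72 against 0 to 0.194). Anterior DKO 3, from an embryo with 20 somites, was above the other 3 anterior DKO libraries for Hoxa10 (1.10 CPM, 19 counts, against 0.143 to 0.276) and Hoxd10 (0.404 CPM, 7 counts, against 0 to 0.0286). In that library the limb field list summed to 15.1 CPM, the lowest of the 4 anterior DKO libraries, and the axial bud list to 38.7 CPM, the highest of the 9 anterior libraries.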

How the results depend on the processing

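The number of members called was the same under all 13 alternatives for posterior against anterior in controls and all 12 in the DKO (7 of 7 each, in controls 3 of the 3 given a p by DESeq2), and under all 17, 17 and 16 for DKO against control in the posterior and anterior piece and for the interaction (0 each, in the interaction 0 of the 5 given a p by DESeq2). For the somite slope it was 1 of 7 with DESeq2 and 0 to 1 when 1 embryo was left out (1 without DKO embryo 4, Hoxc10). With the embryo as replicate block the interaction for Hoxc9 was -0.01 (0.01 without it), and the block changed no call. No block exists between control and DKO embryos, which are different animals. With 1 embryo left out, DKO against control in the anterior piece ranged from -1.23 to 0.21 for Hoxa9, -0.03 to 0.19 for Hoxb9 and -0.15 to 0.66 for Hoxc9. The interaction ranged from -0.01 to 1.39 for Hoxa9, -0.22 to 0.02 for Hoxb9, -0.49 to 0.38 for Hoxc9, -0.77 to 2.22 for Hoxa10, -0.26 to 1.45 for Hoxc10 and -0.10 to 5.98 for Hoxd10, and the slope from -0.02 to 0.02 for Hoxb9 and -0.03 to 0.06 for Hoxc9. By Spearman correlation 4 of the 21 most similar genes were the same, and without anterior control 3 it was 10. The cause was not tested.

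Counts over all genes moved by more than 1.5 times for DKO against control in the posterior piece (2 genes called) with DESeq2 (162), no count filter (14), all libraries in 1 fit (51), somite number as covariate (7) and without DKO embryo 2 (24). In the anterior piece (6) they moved with DESeq2 (296), no filter (83), 1 fit (19) and somite number (84), and ranged from 1 to 57 with 1 embryo left out, 57 being without DKO embryo 2. The interaction (0) had 10 with DESeq2 and 1 without DKO embryo 2, and the slope (2) had 139 with DESeq2, 29 with no filter and 0 to 29 with 1 embryo left out. Posterior against anterior in the DKO (2913) had 1728 without DKO embryo 1. Hoxd10 summed with Gm28309 differed between posterior and anterior controls by 6.04. In the anterior piece, depth limited Hoxc10, Hoxd10, Hoxa10 and Hoxd9, which had 0 to 19 counts in the anterior libraries other than control 3.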
